A study of Rattus norvegicus with 4 samples.

Results

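The genes described here were Eno1, Aldoa, Pgam1, Khk and Pdk2, enzymes of glycolysis, of the entry of fructose and of the control of pyruvate. They were taken by symbol from the probe table of the array platform and held 6 of its 1432 probes with 1 gene symbol, 2 for Aldoa and 1 for each of the others, so they were 5 of 958 named genes. They had been picked from genes that an earlier analysis of these arrays had called in the comparison of ligation with sham. Their ratios in that comparison are therefore given as a description, without a test.

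The arrays measured liver RNA of male Sprague-Dawley rats of 250 to 300 g at 12 h after surgery, with no age given in the labels. In the ligation group the common bile duct was tied, which stops bile from reaching the intestine, and in the sham group the duct was exposed without being tied. Both groups were opened under ether, ate freely afterwards and gave the right lateral lobe of the liver. RNA of 3 rats was mixed in each group, so the spread between animals was not measured, and each of the 4 two-colour arrays carried both mixtures. The ligation RNA was labelled with Cy5 on arrays 1 and 3 and with Cy3 on arrays 2 and 4. Nothing in the labels says that the 4 arrays came from separate mixtures, so the p-values given here cover the scatter of hybridisations and not that of animals.

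Glycolysis breaks glucose down to pyruvate. Aldolase A (Aldoa) splits fructose bisphosphate into triose phosphates, phosphoglycerate mutase (Pgam1) moves the phosphate group within phosphoglycerate, and enolase (Eno1) removes water to make phosphoenolpyruvate. Aldoa is known from muscle, blood cells and many other tissues. Ketohexokinase (Khk) phosphorylates fructose and lets it enter below the step of phosphofructokinase. Pyruvate dehydrogenase kinase (Pdk2) switches off the pyruvate dehydrogenase complex and so limits the entry of pyruvate into the citrate cycle.

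The promoters of the 5 genes are shown because Eno1, Aldoa and Pgam1 shared a direction, and Khk and Pdk2 shared the opposite one. That split depends on the reading of the ratio and on the zero point, as described below. Each line gives the 250 bases before 1 annotated start in RefSeq (GRCr8), read 5′ to 3′ on the strand of the gene. Capitals mark GGGCGG, a GC box, and ACGTG, the core of elements bound by hypoxia-inducible and related factors, on either strand. They also mark CACGTG, the E-box, which reads alike on both strands and contains ACGTG. The source of the windows held 8 starts for the 5 genes, and for Eno1 and Aldoa, which had 2 and 3, the start with the most matches is shown. For Khk and Pdk2, both on the minus strand, the RefSeq gene reached further upstream than the start used, to 31175779 and 80483988. The Khk window thus lay within the annotated gene, and that of Pdk2 partly so. The windows printed for Eno1 and Aldoa also lay wholly within the annotated genes, which began upstream of them, at 166002867 and 190838021.
Eno1, chr5:166003111-166003360, plus strand: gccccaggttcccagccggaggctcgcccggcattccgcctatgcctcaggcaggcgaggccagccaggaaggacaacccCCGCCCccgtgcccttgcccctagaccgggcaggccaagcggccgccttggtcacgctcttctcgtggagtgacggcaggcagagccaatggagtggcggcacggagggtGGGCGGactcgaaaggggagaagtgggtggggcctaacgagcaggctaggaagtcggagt
Aldoa, chr1:190836778-190837027, minus strand: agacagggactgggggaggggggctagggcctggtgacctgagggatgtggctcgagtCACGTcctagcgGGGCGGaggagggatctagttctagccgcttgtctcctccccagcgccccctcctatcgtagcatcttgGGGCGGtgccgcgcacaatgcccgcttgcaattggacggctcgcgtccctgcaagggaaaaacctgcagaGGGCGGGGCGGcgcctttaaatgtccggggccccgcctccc
Pgam1, chr1:250672902-250673151, plus strand: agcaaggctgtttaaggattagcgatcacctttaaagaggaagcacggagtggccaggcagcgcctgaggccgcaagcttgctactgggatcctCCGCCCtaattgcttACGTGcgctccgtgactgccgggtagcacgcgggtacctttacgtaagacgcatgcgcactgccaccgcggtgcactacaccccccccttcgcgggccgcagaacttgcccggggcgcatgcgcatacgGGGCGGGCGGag
Khk, chr6:31175482-31175731, minus strand: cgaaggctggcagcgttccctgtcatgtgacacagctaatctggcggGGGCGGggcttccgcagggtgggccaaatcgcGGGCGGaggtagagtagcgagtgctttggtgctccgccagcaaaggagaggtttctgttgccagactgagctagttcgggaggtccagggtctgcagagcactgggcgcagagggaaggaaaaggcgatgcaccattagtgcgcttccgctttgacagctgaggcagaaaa
Pdk2, chr10:80483913-80484162, minus strand: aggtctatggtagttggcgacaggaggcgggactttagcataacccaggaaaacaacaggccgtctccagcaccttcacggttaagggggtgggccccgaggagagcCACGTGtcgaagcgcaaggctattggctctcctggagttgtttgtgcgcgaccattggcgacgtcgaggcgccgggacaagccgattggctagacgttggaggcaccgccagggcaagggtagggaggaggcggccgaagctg

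A GC box was found in the windows printed for Eno1, Aldoa, Pgam1 and Khk and not in that of Pdk2. GGGCGG occurred on either strand in 30.5% of the 33469 windows of this length in the table. The windows printed for Eno1 and Aldoa were chosen for their matches, so the 5 cannot be compared with shares over all windows. The 5 printed windows also held more G and C, from 60.4% (Khk) to 69.2% (Eno1), against a median of 51.2% over all windows. The window of Aldoa held 4 matches, of which the pair nearest the start overlapped, at 41 and 36 bases upstream. Those of Pgam1 lay 156, 12 and 8 bases upstream, and the last pair overlapped as well. ACGTG was found in the printed windows of Aldoa (192 bases upstream), Pgam1 (141 bases) and Pdk2, and 16.6% of all windows held it. In Pdk2 it lay within the E-box, 143 and 142 bases upstream on opposite strands, and 5.59% of all windows held an E-box. TATAAA, which 12.9% of all windows held, was in none of the 5. The first Eno1 start and the first and second Aldoa starts, not printed, held no match to any of the 4 motifs. A match describes the letters of the window and not a bound site, and no probe of these arrays reads promoter activity.

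The values are log ratios, 1 per probe and array. They are read as base 2 and as ligation over sham on every array. The base is not stated in the sources used here, and natural logarithms would turn the 1.44-fold difference of Eno1 into 1.69-fold. The direction is not stated either and was taken as likely because the labels list ligation as channel 2. Over all 1936 probes, arrays of the same dye orientation correlated at r = 0.93 and 0.94, and those of opposite orientation at -0.45, -0.36, -0.35 and -0.28. These r describe probes, which are not independent replicates and share their slide and layout, and 3 of the 4 opposite pairs were under -0.3. The means of the 5 genes are therefore also given with the table read as Cy5 over Cy3, which turns the sign of arrays 2 and 4. Before centring, arrays 1 to 4 had medians of -1.26, 0.43, -0.96 and 0.26. Unless stated otherwise, values were centred on the median of their array.

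With ligation over sham and centring, the enzymes of glycolysis lay above the array median and the other pair below it. Averaged over 4 arrays, Eno1 was at 0.53 ± 0.08 (SE of the fit) on the log2 scale, Aldoa at 0.32 ± 0.08 and Pgam1 at 0.28 ± 0.07. Khk was at -0.46 ± 0.08 and Pdk2 at -0.39 ± 0.08. Among the 958 genes, ordered from the highest mean, Eno1 was in place 17, Aldoa 71 and Pgam1 88, while from the lowest Khk was in place 64 and Pdk2 in place 80. With the table read as Cy5 over Cy3 the places from the highest were 12 for Eno1, 421 for Aldoa, 24 for Pgam1, 113 for Khk and 174 for Pdk2. Eno1 stood above Aldoa by more than their standard errors, whereas Aldoa and Pgam1, and likewise Khk and Pdk2, lay within 1 SE of each other. By single probe Aldoa was at 0.65 (probe 1530) or -0.01 (-0.0125, probe 1879), so its order against Eno1 and Pgam1 depends on the probe. Of all 1174 features tested, 12% were called higher and 16.6% lower by limma (Benjamini-Hochberg adjusted p under 0.05). All 5 genes were among those calls, which is how they had been picked, and nothing is read from that count.

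None of the 6 probes was above the array median on all 4 arrays, or below it on all. The average of the Aldoa probes was above it on all 4, at 0.64, 0.05 (0.0523), 0.42 and 0.17. For Eno1 the centred values were 1.59 on array 1, -0.37 on array 2, 1.21 on array 3 and -0.33 on array 4. Both arrays with ligation in Cy5 were high and both with ligation in Cy3 were below 0. The same order was seen for Pgam1, at 1.15, -0.56, 1.09 and -0.55 on arrays 1 to 4. For Khk the values were 0.39, -1.02, 0.11 and -1.33. For Pdk2 they were 0.41, -0.98, 0.05 (0.0492) and -1.07. The pattern of the pair was the reverse in size, since their positive values with Cy5 were small and their negative values with Cy3 were large. Over all features, 12.9% had 1 sign on all 4 arrays.

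**Figure D1:**
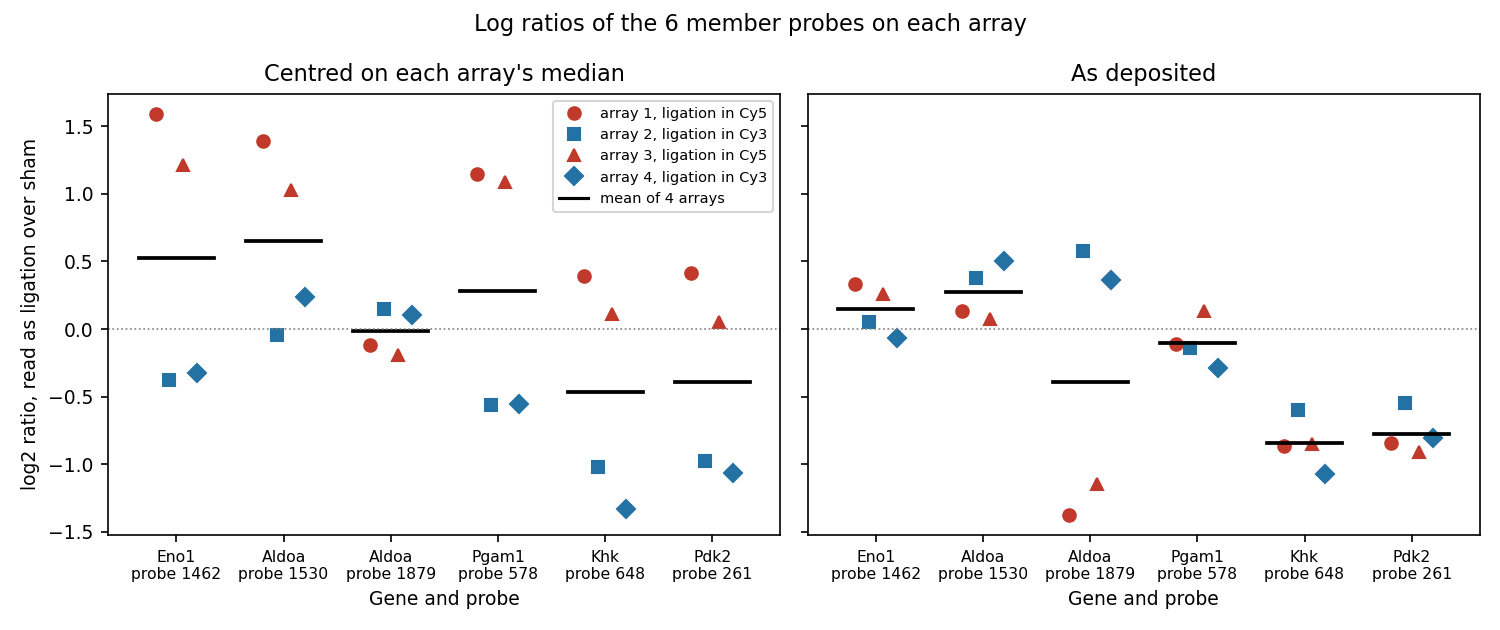
Log2 ratio of each of the 6 probes (horizontal axis) on each array, read as ligation over sham, centred on the array median (left) and as deposited (right). Red marks arrays with ligation in Cy5, blue those with ligation in Cy3, and the bar is the mean of 4 arrays. After centring, arrays 1 and 3 lie above arrays 2 and 4 for every probe except Aldoa probe 1879, and as deposited all 4 values of Khk and Pdk2 lie below 0.

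Arrays of the same orientation lay close together. The gap between arrays 1 and 3 was 0.38 for Eno1, 0.06 (0.0577) for Pgam1, 0.28 for Khk and 0.37 for Pdk2. Between arrays 2 and 4 it was 0.05 (0.0465), 0.01 (0.0125), 0.31 and 0.09 (0.0897) in the same order of genes. With ligation in Cy5 the mean of 2 arrays was 1.40 for Eno1, 1.12 for Pgam1, 0.25 for Khk and 0.23 for Pdk2. With ligation in Cy3 it was -0.35, -0.56, -1.18 and -1.02. Read as ligation over sham, Eno1 and Pgam1 thus had a higher ratio than Khk and Pdk2 on each of the 4 arrays, and centring cannot change that order. These genes were picked from calls in this contrast on these arrays, so their order largely restates that choice and is a description.

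As deposited, without centring, Khk was at -0.87 on array 1, -0.60 on array 2, -0.85 on array 3 and -1.07 on array 4. Pdk2 was at -0.84, -0.55, -0.91 and -0.80. Both were thus below 0 on all 4 arrays, as were 28.4% of all features (30.2% had 1 sign on all 4). Eno1 was at 0.34, 0.05 (0.0523), 0.26 and -0.07 (-0.0663), close to 0 with 3 of 4 values positive. Pgam1 was at -0.11, -0.14, 0.13 and -0.29, with 1 of 4 positive. Leaving out the centring moved every feature by -0.38 on average over the arrays, and the split of limma calls went from 141 higher and 195 lower to 20 higher (1.7%) and 965 lower (82.2%). On that scale the means were 0.15 ± 0.09 for Eno1, -0.06 ± 0.09 for Aldoa, -0.10 ± 0.09 for Pgam1, -0.85 ± 0.10 for Khk and -0.78 ± 0.09 for Pdk2. The signs of Aldoa and Pgam1 therefore depend on the zero point, and those of Eno1, Khk and Pdk2 were the same on both scales.

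Read as Cy5 over Cy3 and centred, the means were 0.88 for Eno1, 0.84 for Pgam1, 0.71 for Khk, 0.63 for Pdk2 and 0.21 for Aldoa. All 4 arrays were then positive for Eno1, Pgam1, Khk and Pdk2, in a reading where 67.8% of features had 1 sign on all 4 and limma called 45.4% higher and 33.4% lower. Under this reading Khk and Pdk2 changed direction, while Eno1, Aldoa and Pgam1 stayed positive. As deposited in the same reading, Eno1 was at 0.15, Pgam1 at 0.11, Khk at -0.01 (-0.0111), Pdk2 at -0.10 and Aldoa at -0.52, where limma called 0.426% of features higher and 72.7% lower. The mean of Eno1 was above 0 under each of these 4 combinations, and no other gene of the 5 kept 1 sign throughout.

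**Figure D2:**
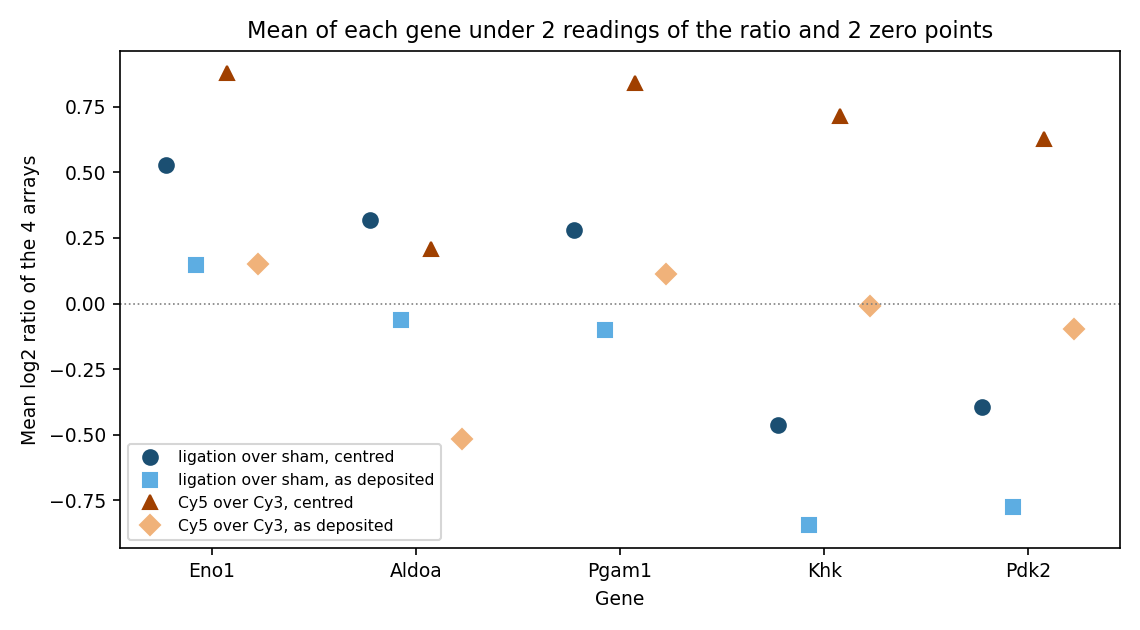
Mean log2 ratio of the 4 arrays for each gene under both readings of the ratio and both zero points. Eno1 is above 0 in each of the 4, from 0.15 to 0.88, and Khk runs from -0.85 to 0.71.

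The probes of Aldoa differed. Probe 1530 was at 1.39 on array 1, -0.05 (-0.0472) on array 2, 1.03 on array 3 and 0.24 on array 4, with a mean of 0.65. Probe 1879 was at -0.12, 0.15, -0.19 and 0.11, with a mean of -0.01 (-0.0125). The first resembled Eno1 in its high values on arrays 1 and 3, and the second stayed near the median on every array. Their difference was 1.51 on array 1 and 1.22 on array 3, but -0.20 on array 2 and 0.13 on array 4. The gap between the probes was thus 1.36 on average with ligation in Cy5 and -0.03 (-0.0323) with ligation in Cy3. Of the 261 genes with exactly 2 probes, 248 had a smaller gap between their probe means than the 0.66 of Aldoa and 12 a larger one, with a median of 0.10 (0.0976). As deposited, probe 1530 was above 0 on all 4 arrays, at 0.13, 0.38, 0.07 (0.0709) and 0.50, as were 1.79% of features. Probe 1879 was then at -1.37, 0.58, -1.15 and 0.37. The gene value of 0.32 averages a high and a flat probe and describes neither.

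**Figure D3:**
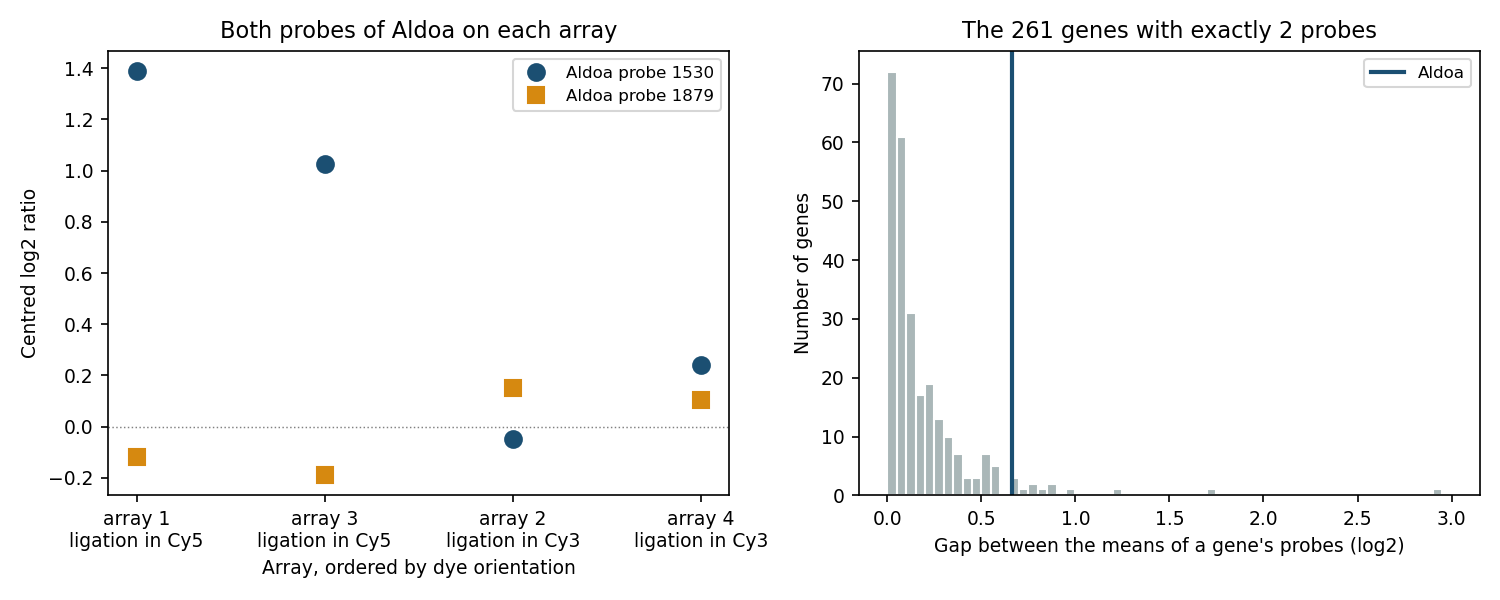
Left, centred log2 ratio of both Aldoa probes on each array, ordered by dye orientation. Right, number of genes by the gap between the means of their probes, for the 261 genes with exactly 2 probes, with Aldoa at 0.66. The probes are far apart on arrays 1 and 3 and close on arrays 2 and 4.

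The dye term is the mean with ligation in Cy5 minus the mean with ligation in Cy3, divided by 2. It was not the value on which the genes were picked, and it was tested. The share of features with a ligation call rose with the dye term, however, from 1.7% of the 294 lowest to 53.1% of the 294 highest. A gene picked from such calls is therefore more likely to have a high dye term, and these p-values are not free of that choice. The dye term was 0.88 ± 0.08 for Eno1 (limma adjusted p = 4.96e-06), 0.84 ± 0.07 for Pgam1 (4.96e-06), 0.71 ± 0.08 for Khk (8.26e-06) and 0.63 ± 0.08 for Pdk2 (1.55e-05). For Aldoa it was 0.21 ± 0.08 (limma adjusted p = 0.0226). That call did not hold when array 1 (0.15, adjusted p = 0.0939), 2 (0.18, adjusted p = 0.157) or 4 (0.24, adjusted p = 0.0529) was left out. As deposited, Eno1 (0.15, limma adjusted p = 0.134), Pgam1 (0.11, 0.281), Khk (-0.01, -0.0111, 0.928) and Pdk2 (-0.10, 0.346) did not pass, and Aldoa was turned to -0.52 (0.00017). By probe the centred term was 0.56 for probe 1530 and -0.14 for probe 1879. A dye term past the test was common, in 78.8% of features, 45.4% positive and 33.4% negative. For Eno1, Pgam1, Khk and Pdk2 it was larger than the ligation mean. The sign of the ratio read as Cy5 over Cy3 is that of this term by construction.

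Eno1, Pgam1, Khk and Pdk2 were among the 294 features with the highest dye terms (0.54 to 0.96), where limma called 53.1% in either direction (20.1% higher and 33% lower) and the ligation means had an SD of 0.51. Aldoa was in the next 293 (0.10 to 0.54), with 40.3% called and an SD of 0.34. Of the 293 below these, 19.5% were called. In the 294 features with the lowest dye terms, 1.7% were called and the SD was 0.08 (0.0769). The share of all features called thus rose with the dye term, and the 5 genes lay where ratios of their size were common. Whether signal strength had a part in this was not tested, since no intensities were used.

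**Figure D4:**
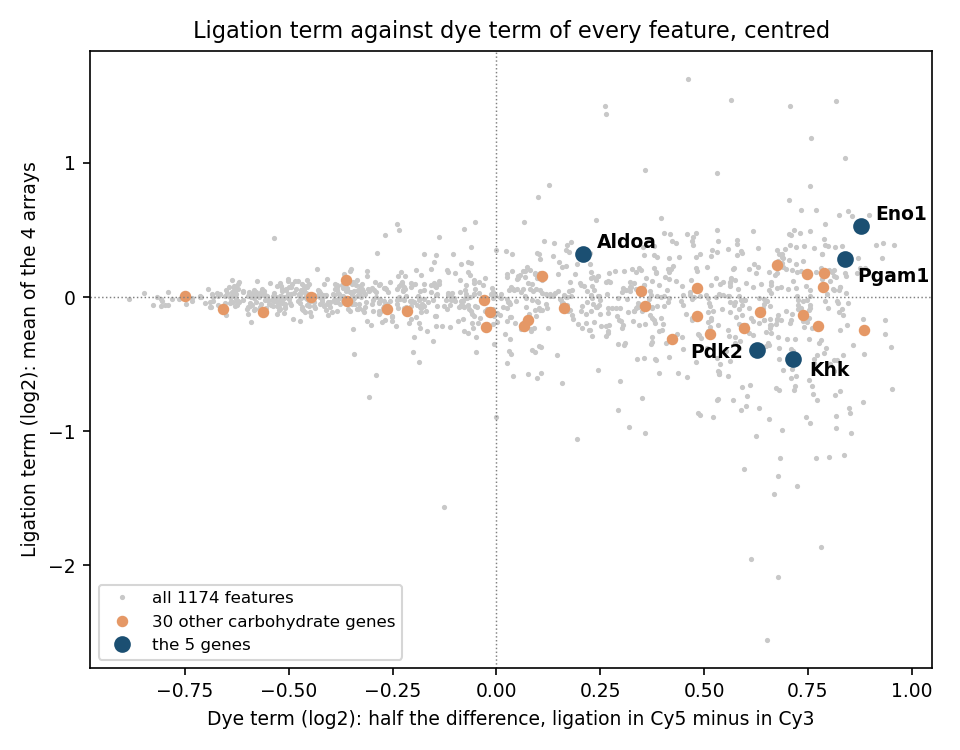
Ligation term (vertical, mean log2 ratio of 4 arrays) against dye term (horizontal, log2) of all 1174 features in grey, the 30 other carbohydrate genes in orange and the 5 genes in blue. The cloud widens to the right, where Eno1 (0.53), Pgam1 (0.28), Khk (-0.46) and Pdk2 (-0.39) lie.

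The other genes of carbohydrate metabolism came from 8 lists, 1 of which, pentose phosphate, held no measured gene. Of 30 measured genes besides the 5, limma called 1 higher and 4 lower at an adjusted p under 0.05, and 25 did not pass. That is 16.7% of the 30, against 28.6% of all features. Their median was -0.09 (-0.0902), against -0.01 (-0.0130) over all features. As deposited 25 were called lower and 0 higher, and 0 were higher at an unadjusted p under 0.05. Read as Cy5 over Cy3, 14 were higher and 8 lower.

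Eno1, Aldoa and Pgam1 were picked on the same term, so setting the remaining steps of glycolysis beside them restates that choice. Of the 8 others measured in that list, limma called 1 lower and 0 higher (0 also at an unadjusted p under 0.05), with a median of -0.12. The lower one was Ldhb, a subunit of lactate dehydrogenase, at -0.31 ± 0.07 (limma adjusted p = 0.00632). Its values on arrays 1 to 4 were 0.00 (0.00172), -0.72, 0.22 and -0.75. The partner subunit Ldha was at -0.25 ± 0.09 and did not pass (limma adjusted p = 0.063). Pgk1, the phosphoglycerate kinase one step before Pgam1, was at -0.13 ± 0.08 (limma adjusted p = 0.237). The liver pyruvate kinase Pklr, one step after Eno1, was at -0.14 ± 0.07 (limma adjusted p = 0.163). The phosphofructokinase subunits Pfkl, Pfkm and Pfkp were at 0.07, 0.00 (0.00382) and -0.11, and the hexokinase Hk1 at -0.09 (-0.0919), none past the test. In the reading as Cy5 over Cy3, limma called 5 of the 8 higher, with Ldha at 0.88, Pgk1 at 0.74, Pklr and Pfkl at 0.48 and Ldhb at 0.42, and 3 lower. Aldoc, Eno2, Eno3, Pgam2, Pdk1, Pdk3 and Pdk4 had no probe under their own symbol in the probe table and were not analysed here.

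Beside Khk, the fructose list held Gckr, the regulatory protein that binds glucokinase and responds to fructose phosphates. It was lower, at -0.28 ± 0.07 (limma adjusted p = 0.0141), with 0.21, -0.68, 0.27 and -0.90 on arrays 1 to 4. In glycogen metabolism the liver glycogen synthase Gys2 was at -0.23 ± 0.07 (limma adjusted p = 0.0274) and the phosphatase subunit Ppp1ca at 0.24 ± 0.08 (limma adjusted p = 0.0362). These were 2 of 6 genes there. The probes of Ppp1ca differed, with means of 0.44 for probe 1516 and 0.03 (0.0319) for probe 1665. In uptake and hormonal control, 1 of 8 genes was lower, the AMP-activated kinase subunit Prkaa2 at -0.22 ± 0.08 (limma adjusted p = 0.049), and the liver glucose transporter Slc2a2 was at 0.17 ± 0.09 (limma adjusted p = 0.211). Beside Pdk2, the monocarboxylate carriers Slc16a1 and Slc16a7 were at 0.04 (0.0434) and -0.17, neither past the test. Neither Pck1 (-0.22) and Pfkfb1 (0.16) of glucose synthesis and its control nor Aco1 (-0.22), Me1 (0.13) and Got1 (-0.06) of the citrate cycle passed.

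The calls among these other genes depended in part on which arrays entered. That of Ldhb held without each array in turn. Gckr lost its call without array 1 (-0.26, limma adjusted p = 0.0545) or array 4 (-0.22, 0.188). Gys2 lost it without array 2 (-0.24, limma adjusted p = 0.129), array 3 (-0.21, 0.0736) or array 4 (-0.22, 0.177), and Ppp1ca without array 1 (0.17, 0.148), array 2 (0.26, 0.0828) or array 4 (0.21, 0.213). Prkaa2 lost it without any 1 of the 4 arrays (limma adjusted p from 0.0692 to 0.4). Without the dye term none of the 5 passed (limma adjusted p = 0.998 for each), the highest p of any alternative tried. Read as Cy5 over Cy3, Ldhb, Gckr and Gys2 would be at 0.42, 0.51 and 0.60.

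**Figure D5:**
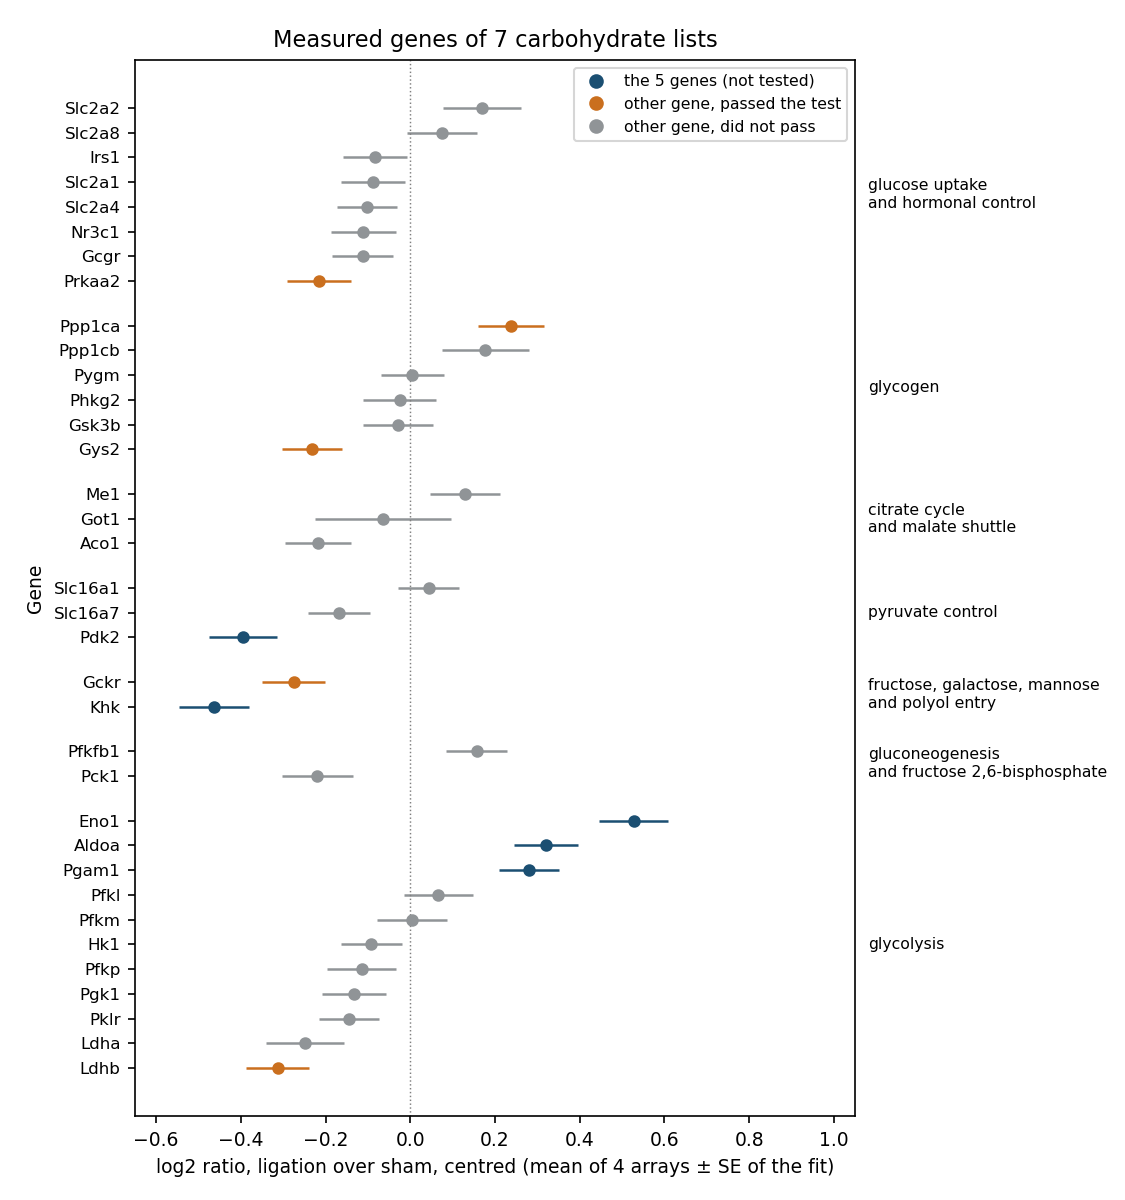
Centred log2 ratio (ligation over sham, mean of 4 arrays ± SE of the fit) of the 35 measured genes of 7 carbohydrate lists. Blue marks the 5 genes, orange other genes past the limma test and grey those that did not pass. The 8 other genes of glycolysis run from -0.31 to 0.07, and Eno1, Aldoa and Pgam1, which were picked on this value, lie from 0.28 to 0.53.

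Markers of cell types were set beside these values, against the 12% of all features called higher and 16.6% called lower. Of 5 hepatocyte genes, limma called 4 higher, namely Apoa1 (0.38), Tf (0.37), Ttr (0.26) and Serpina1 (0.20), and Pck1 did not pass. Their range was close to that of Aldoa and Pgam1, and as deposited limma called Pck1 lower (-0.60) and passed no other of the 5. The probes of Serpina1 differed, with means of 0.38 (probe 1865) and 0.03 (0.0321, probe 1874). Among 5 genes of leukocytes and Kupffer cells, limma called 3 lower (Tnf at -0.57, Ccl5 at -0.33 and Cd53 at -0.27). Endothelial genes ran from -1.18 to 0.09 with 2 of 6 lower. Of the 3 genes listed for duct and bile epithelium, only Anxa5 was called higher (0.95), and Spp1 (0.14) and Aqp1 (-0.02) did not pass. Of the matrix genes, Timp1 was higher (0.35) and Col1a1 lower (-0.23), but Timp1 did not pass as deposited (-0.03, -0.0344, limma adjusted p = 0.771). Col1a1 had probe means of -0.05 (-0.0509, probe 1183) and -0.42 (probe 1306). The platelet gene Pf4 was at -0.02 and the muscle gene Tnni2 at 0.05 (0.0458), and neither passed. As deposited, where limma called 82.2% of all features lower, it called all 5 leukocyte and Kupffer genes and all 6 endothelial genes lower. Of the 3 duct and bile epithelium genes it then called 1 higher and 2 lower, and Pf4 and Tnni2 were called lower too. These counts thus also depend on the zero point. With the ratio taken as Cy5 over Cy3, limma called Tnf (0.44), Ccl5 (0.37) and Cd53 (0.27) higher. In that reading Apoa1 (0.80), Ttr (0.69) and Tf (0.63) were higher and Serpina1 lower (-0.19), 2 of 6 endothelial genes were higher and 3 lower, and neither matrix gene passed. The part of these cells in the ratios of Aldoa, Eno1 and the others was not tested. The table holds ratios and no levels, so the liver label could not be checked against the level of defining genes. In a mixture of whole tissue, fewer cells of a type and less RNA per cell cannot be told apart.

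The genes with the most similar values were found by the root-mean-square difference over the 4 centred arrays. For Khk the nearest of 957 other genes was Slc26a1, a sulfate and oxalate carrier, at 0.09 (0.0896), followed by Pdk2 at 0.14. For Pdk2 the nearest were the calcium-binding protein Cib1 (0.12) and the transcription regulator Tsc22d1 (0.12), and for Eno1 they were P-cadherin Cdh3 (0.13) and the glutathione transferase Mgst1 (0.14). For Pgam1 they were the retinoid receptor Rxrg (0.11) and the nucleoside diphosphate kinase Nme2 (0.12), and for Aldoa the growth factor Bmp6 (0.08, 0.0792) and the ATP synthase inhibitor Atp5if1 (0.11). Eno1, Aldoa and Pgam1 were not among each other's nearest pair. These distances rest on 4 arrays, share the dye term and are a description.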

How the data were processed

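Liver RNA of 3 pooled rats per group was compared on 4 two-colour cDNA arrays, described in the labels as holding 1800 rat genes. The authors deposited 1 log2 ratio per probe and array, with the base assumed. Their scanning, background correction and normalization were not given in the sources used here. No depth or signal over background is known, so the number of arrays limits the precision.

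Genes were named from the platform's annotation, where 1432 of 1936 probes had 1 symbol, 19 had several and 485 none. By gene number, 1429 of the 1432 had an equal symbol in RefSeq (GRCr8), and 3 were not found. The 288 spots at the 18 positions unnamed in each of 16 print blocks were taken as controls and left out of the tests. Arrays were centred on their medians, probes of a gene averaged, and 1174 features (958 genes, 216 other probes) fitted in R 4.3.3 by limma 3.58.1, using a ligation and a dye term, eBayes and Benjamini-Hochberg adjustment at 0.05. Each gene had 2 residual degrees of freedom. The fit was also run on data simulated from its own dye terms and residual spread, with planted differences and independent arrays. Such data cannot show how it handles shared RNA mixtures, the zero point or the direction of the ratio.

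The members and lists were chosen with earlier results of these data known. Named were the 5 genes and their probes, every other listed carbohydrate gene past the test, other isoforms of the enzymes where measured, and for each gene the 2 genes with the nearest values. Genes named beyond that rule, among them the neighbouring steps of glycolysis and the listed genes that did not pass, were chosen after their values were seen. Alternatives were other zero points and normalizations, the other reading of the ratio, no dye term, a robust prior, single probes, all spots, and each array left out.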

Additional observations from a re-analysis of the deposited data

Results flagged for a closer look

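The ratios of the 5 genes differed between the arrays with ligation in Cy5 and those with ligation in Cy3, by the test of the dye term in the limma fit over all features. The dye term was 0.88 for Eno1, 0.84 for Pgam1, 0.71 for Khk, 0.63 for Pdk2 and 0.21 for Aldoa, each past an adjusted p of 0.05 after centring. As deposited, Eno1, Pgam1, Khk and Pdk2 did not pass (limma adjusted p from 0.134 to 0.928) and Aldoa was at -0.52 (0.00017). The centred call of Aldoa was also lost without array 1, 2 or 4. After centring the dye term was past that threshold in 78.8% of all features, so it does not single these genes out. None of the 6 probes had an array that stood apart from the other 3, centred or as deposited.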

How the results depend on the processing

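Each array left out in turn kept the sign of all 5 genes, with 0.43 to 0.62 for Eno1, 0.27 to 0.37 for Aldoa, 0.27 to 0.29 for Pgam1, -0.54 to -0.39 for Khk and -0.49 to -0.30 for Pdk2. As deposited, Eno1 moved to 0.15, Khk to -0.85 and Pdk2 to -0.78, and Aldoa (-0.06, -0.0618) and Pgam1 (-0.10) changed sign. Read as Cy5 over Cy3, Eno1 moved to 0.88 and Pgam1 to 0.84, and Khk (0.71) and Pdk2 (0.63) changed sign. By single probe Aldoa was at 0.65 or -0.01 (-0.0125). Quantile normalization, centring on probes with 1 symbol, no dye term, the median of the probes, and the 3 alternatives chosen after seeing the data (print-block centring, centring on the upper dye terms, a subtracted curve along the dye term) moved none of the 5 by more than 1 residual SD of that gene in the fit. Under quantile normalization Eno1 was at 0.39 and Pgam1 at 0.21.

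Calls over all features went from 336 to 985 as deposited, to 925 read as Cy5 over Cy3, and to 0 in limma without the dye term, where 74 features had an unadjusted p under 0.05. They were 253 to 308 without 1 array. The 5 calls among the other carbohydrate genes became 25 as deposited, 22 read as Cy5 over Cy3, 3 centred on probes with 1 symbol, 2 with centring on the upper dye terms, 2 with print-block centring, 0 without the dye term in limma (0 at an unadjusted p under 0.05), and 3 to 4 without 1 array. Read as Cy5 over Cy3, Gckr (0.51), Gys2 (0.60), Ldhb (0.42) and Prkaa2 (0.07, 0.0673) changed sign, and as deposited Ppp1ca did (-0.14).

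The dye term as deposited was 0.15 for Eno1 and 0.11 for Pgam1, no longer past the test, and -0.01 (-0.0111) for Khk, -0.10 for Pdk2 and -0.52 for Aldoa. Read as Cy5 over Cy3 it was -0.46 for Khk and -0.39 for Pdk2. For Aldoa it was 0.13 centred on probes with 1 symbol and 0.15 with quantile normalization, neither past the test, and 0.15 to 0.26 without 1 array. Centring shifts each array by its own median, so it moved the dye term of every feature by the same amount. In the reading as Cy5 over Cy3, the dye term is the ligation mean by construction. What lay behind the other changes was not tested. Each array held both groups, so every log ratio was already a comparison of ligation and sham within 1 array. The labels give 1 set of array numbers, and no further pairing was made. A filter on dim probes was not run, since no intensities were used.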
